A study of Mus musculus with 6 samples.

Results

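Messenger RNA levels of 42 genes of the core spliceosome and of the heterogeneous nuclear ribonucleoprotein (hnRNP) family were compared between hearts of mice with and without conditional knockout of Ythdc1. The 42 genes were chosen by name for their function, with earlier results of these data known. All 42 were found among the 54532 genes of the deposited table. They comprise 3 proteins specific to the U1 small nuclear ribonucleoprotein (snRNP), 2 specific to the U2 snRNP, 7 Sm ring proteins and 3 factors that recognise the branch point and the 3′ splice site. The others are 6 SF3a and SF3b subunits, 8 proteins of the tri-snRNP and of catalytic activation, 11 hnRNP proteins and 2 CDC-like kinases. The control libraries (flox control, n = 3) came from Ythdc1flox/flox mice, and the knockout libraries (CKO, n = 3) from mice labelled Ythdc1-CKO, which the series text calls HKO. Both groups received 15 days of normal chow, and the labels describe the libraries of each group as biologically independent. The Cre driver, the cells it is active in, the deleted exons, and the age and sex of the animals are not given in the sources used here.

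The spliceosome is assembled anew on each intron. The U1 snRNP pairs with the 5′ splice site, SF1 and the U2AF dimer mark the branch point and the 3′ splice site, and the U2 snRNP with its SF3 complexes then replaces SF1 at the branch point. The tri-snRNP of U4, U6 and U5 joins, and unwinding and handover steps run by the PRPF proteins, Eftud2 and Snrnp200 form the catalytic core. HnRNP proteins coat nascent transcripts and shift splice site choice, and CDC-like kinases phosphorylate the SR splicing factors. YTHDC1 is the nuclear reader of N6-methyladenosine (m6A) in RNA and is known to bind SR proteins, so splicing is among the steps it is linked to.

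Levels are given in FPKM as deposited, that is, fragments scaled to gene length and to a number set for each library. Recovered gene-assigned reads numbered 17434296 to 19360428 per library, and the members took 0.365% to 0.447% of them, with 129 to 6971 reads per member and library. The number used for scaling was not the total of these reads. It was 1.69e+07 against 17748541 reads in flox control 1, and 1.95e+07 against 17872221 reads in CKO 2. Ythdc1 itself (GRCm38 chromosome 5, 86804221 to 86836659) measured 4.31, 3.64 and 4.10 FPKM in the control libraries, against 2.39, 2.57 and 2.34 FPKM in the CKO libraries. It fell (log2 fold change -0.54, SE 0.09, limma adjusted p = 0.0150), though an exact two-sided permutation test over the 6 libraries gave 0.1, the smallest p that this test can give with 3 against 3. The call was lost without flox control 1 (limma adjusted p = 0.0707), flox control 3 (0.0637) or CKO 3 (0.0535), and after rescaling to TPM (0.0944). In these fits 2.59%, 3.89%, 4.77% and 6.91% of all genes tested were called, against 11.2% in the reported fit. Cardiomyocyte markers were abundant in every library, with a summed level of 15843 to 19232 FPKM in flox controls and 12393 to 16046 FPKM in CKO hearts. CKO 3 stood apart by 12.4 FPKM of Xist and 0.3503 FPKM of Y-linked Ddx3y, where the other libraries had at most 0.0155 and at least 10.8 FPKM. CKO 1 stood apart by macrophage and leukocyte markers, whose 7 genes summed to 209 FPKM there and to 43.3 to 97.3 FPKM elsewhere.

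Most core splicing genes differed little between the genotypes. Of the 42 members, 1 fell, none rose and 41 did not pass the test (limma over 12144 genes, Benjamini-Hochberg adjusted p under 0.05). Over all genes tested 11.2% were called, 5.69% higher and 5.49% lower. The gene that fell was Snrnp70, which encodes the U1-70K protein. At an unadjusted p under 0.05 there were 4 members, Snrnp70, Snrpd3, Sf3a1 and Prpf8, each lower in CKO hearts, beside 27.7% of all genes tested. Groups did not overlap for 9 members (21.4%), 6 lower and 3 higher, where 34.3% of all tested genes had groups that did not overlap.

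The size of the differences was small. The log2 fold change of the members had a median of -0.04 and ran from -0.42 for Snrnp70 to 0.16 for Hnrnpu, on the scale of log2(FPKM + 1), which understates changes of low genes. Its absolute size had a median of 0.08 over the members and 0.18 over all genes tested. A test that is not passed does not show that 2 levels are equal, so the 95% interval of each difference was read as well. It lay within a 1.5-fold change either way for 38 of 42 members (90.5%), where 59.3% of all genes tested had such an interval. With a pseudocount of 0.1 FPKM in place of 1 the count was again 38, beside 45.1% of all genes. The 4 members outside that bound were Snrnp70, Sf3a1, Snrpe and Snrpf. Replicate spread was also small, with a median within-group SD of 0.12 on the log2 scale against 0.15 over all genes tested. In bulk heart RNA, less RNA per cell and fewer cells of a type that expresses a gene cannot be told apart.

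**Figure D1:**
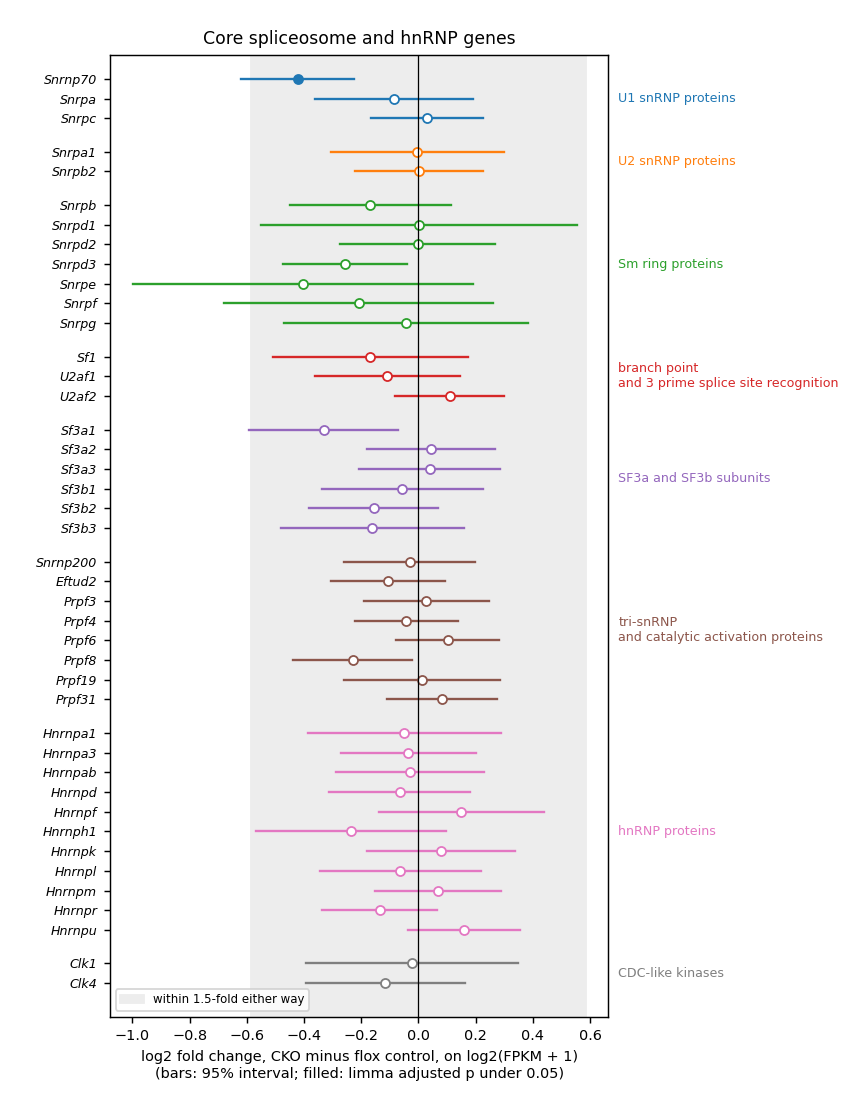
Log2 fold change (CKO minus flox control, on log2(FPKM + 1)) of each of the 42 members on the horizontal axis, grouped by role, with bars for the 95% interval from limma and a grey band for changes within 1.5-fold. Snrnp70, at -0.42, is the 1 filled point (adjusted p under 0.05), and 38 of 42 bars lie inside the band.

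Snrnp70 (ENSMUSG00000063511, GRCm38 chromosome 7, 45376453 to 45395742, minus strand) encodes the protein that binds the first stem loop of U1 snRNA and contacts SR proteins at the 5′ splice site. Its level was 29.2, 29.3 and 30.5 FPKM in flox controls 1 to 3, against 22.3, 20.9 and 22.5 FPKM in CKO 1 to 3. All CKO libraries lay below all controls, and the spread within each group was narrow. The group means were 29.7 ± 0.732 FPKM without and 21.9 ± 0.877 FPKM with the knockout (SD, n = 3 each), a ratio of 0.738. The log2 fold change was -0.42 (SE 0.08, 95% interval -0.62 to -0.23, limma adjusted p = 0.0257), from 3054 to 4638 reads per library. The call was lost without flox control 1 (limma adjusted p = 0.0977), flox control 2 (0.0691), flox control 3 (0.0949), CKO 2 (0.0669) or CKO 3 (0.0630), and after rescaling to TPM (0.157). Without each of these libraries in turn the log2 fold change stayed between -0.44 and -0.39. Over all genes tested, 2.59% to 5.89% were called in these fits and 6.91% after rescaling to TPM, against 11.2% in the reported fit.

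The gene-level value of Snrnp70 sums several kinds of transcript. GENCODE release M21 lists 17 transcripts for it, 5 of them protein-coding, 9 with a retained intron and 2 subject to nonsense-mediated decay. The deposited gene length, 7618 bases, is the union of all their exons and 4.39 times the longest coding transcript (1735 bases). A change in coding and in intron-retaining transcripts therefore cannot be told apart in this value, and the level per length is lower than one taken over a coding transcript alone. No other annotated gene shares exon bases with Snrnp70. A snoRNA gene on the opposite strand, Gm22478, lies within its span and had 4 to 9 reads per library.

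Markers of cell types also differed between the groups. Over all genes tested, 34.3% had groups that did not overlap and 11.2% were called. Of 8 cardiomyocyte markers, Tnni3, Ryr2 and Pln were lower in CKO hearts without overlap, with ratios of group means of 0.606, 0.604 and 0.558, and Tnni3 passed the test (limma adjusted p = 0.0314). Of 5 atrial cardiomyocyte markers, Myl7, Myl4 and Sln were lower and Nppa higher in CKO hearts without overlap, and Bmp10 was at 0 in flox control 2. Nppa passed the test, with a ratio of 9.38 (limma adjusted p = 0.0185). Sln passed as well, with a ratio of 0.1002 (limma adjusted p = 0.0436), from 4 to 519 reads per library. Myl7, Myl4 and Bmp10 did not pass. The 5 atrial markers summed to 153 to 407 FPKM in flox controls and to 548 to 2100 FPKM in CKO hearts. In CKO hearts most of the sum was Nppa, whereas flox control 3 had 99.5 FPKM of Nppa and 244 FPKM of Myl7. Flox control 2 had 56.6 FPKM of Myl7, against 154 and 244 FPKM in the other controls. Of 7 fibroblast markers, 4 were higher in CKO hearts without overlap, with sums of 476 to 615 and 546 to 789 FPKM. Tcf21 passed the test, with a ratio of 2.70 (limma adjusted p = 0.0147). Of 7 endothelial markers, 1 was higher and 3 lower without overlap, with sums of 271 to 273 and 213 to 282 FPKM. The higher marker, Vwf, passed the test, with a ratio of 2.43 (limma adjusted p = 0.0206). Of 7 pericyte and smooth muscle markers, Tagln was higher and Kcnj8 and Abcc9 lower without overlap, with sums of 433 to 792 and 378 to 544 FPKM. Tagln was near the floor, at 0.208 to 0.353 FPKM in flox controls and 0.533 to 0.672 FPKM in CKO hearts. It had 7 to 26 reads per library and was too low to be tested. Abcc9 passed the test, with a ratio of 0.544 (limma adjusted p = 0.0162). The part of these cells in the Snrnp70 result was not tested.

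Since Snrnp70 was the member that fell, the bases before its start site are shown. RefSeq's promoter table (GRCm38.p6) holds 37 of the 42 members, and the 250 bases upstream of the Snrnp70 start (chr7:45395743-45395992, minus strand) are printed 5′ to 3′. Capitals mark matches on either strand to GCGCATGC, the core of the sequence bound by the factor NRF1.
Snrnp70: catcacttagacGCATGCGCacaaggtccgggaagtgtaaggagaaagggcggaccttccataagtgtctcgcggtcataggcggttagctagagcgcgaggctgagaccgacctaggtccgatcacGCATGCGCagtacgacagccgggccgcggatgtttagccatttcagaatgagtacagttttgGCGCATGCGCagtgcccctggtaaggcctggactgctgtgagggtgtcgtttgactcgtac
The stretch holds 3 separate matches, the last being a palindrome in which the matches on both strands overlap. Of 8825 tested genes with a promoter in the table, 3 (0.0340%) held at least 3 separate matches in the bases before the start, and Snrnp70 was the 1 member among them. The minimum of 3 is the number found in Snrnp70, which was shown because it fell. Snrnp70 therefore had to be among these genes, and the share is not a test. A match of letters describes the sequence and does not show that a factor binds there.

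The other U1-specific proteins did not pass the test. Snrpa, which encodes the U1 protein that binds the second stem loop of U1 snRNA, measured 9.998, 13.4 and 12.3 FPKM in the control libraries, against 11.5, 11.05 and 10.7 FPKM in the CKO libraries. Its groups overlapped (log2 fold change -0.09, 95% interval -0.36 to 0.19, limma adjusted p = 0.682). Snrpc, which encodes the U1 protein that stabilises pairing with the 5′ splice site, measured 5.15, 5.83 and 5.23 FPKM in the control libraries, against 5.26, 5.59 and 5.75 FPKM in the CKO libraries. These groups overlapped as well (0.03, -0.17 to 0.22, limma adjusted p = 0.862).

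Whether Snrnp70 changed relative to its partners was examined with ratios within each library, which do not depend on how libraries were scaled. The ratios were chosen after the values were seen, and Snrnp70 was taken because it fell. They therefore set its values beside those of its partners and are no separate test of the fall. The Snrnp70 to Snrpc ratio of FPKM was 5.67, 5.03 and 5.84 in the control libraries, against 4.25, 3.74 and 3.91 in the CKO libraries. The Snrnp70 to Snrpa ratio was 2.92, 2.20 and 2.48 in the control libraries, against 1.95, 1.89 and 2.10 in the CKO libraries. Neither ratio overlapped between the groups, with log2 differences of -0.47 and -0.35. An exact two-sided permutation test gave 0.1 for each of the 2 ratios, raw and Benjamini-Hochberg adjusted, the smallest p that this test can give with 3 against 3 libraries.

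**Figure D2:**
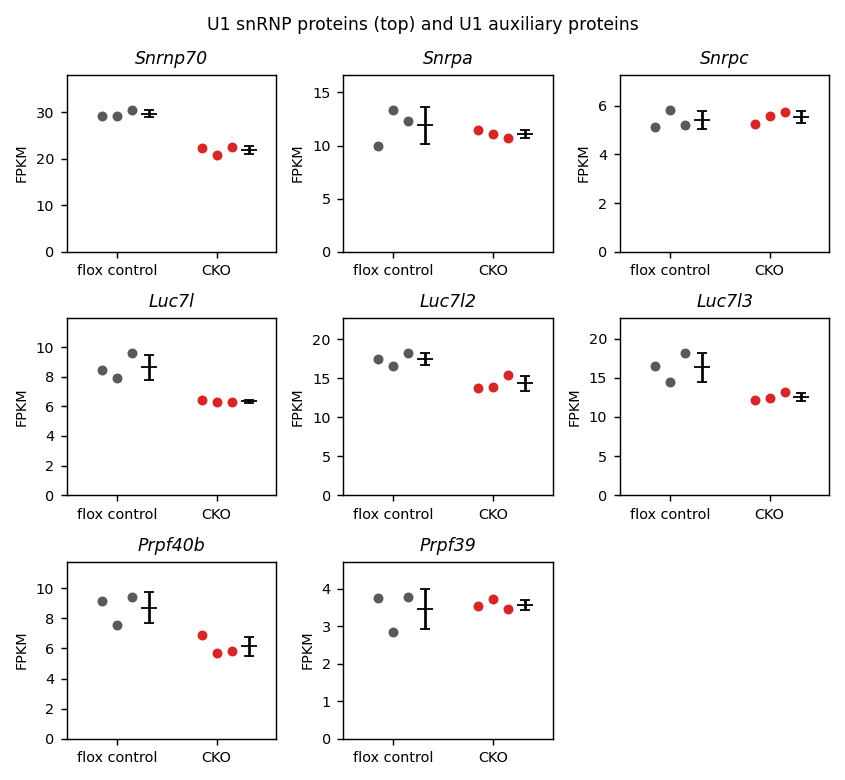
FPKM (vertical axes, each from 0) of the 3 U1 snRNP genes in the top row and of 5 U1 auxiliary genes below, with 1 point per library and bars for mean ± SD (n = 3 each). Snrnp70 lies at 29.2 to 30.5 FPKM in flox controls and at 20.9 to 22.5 FPKM in CKO hearts, while the groups of Snrpa and Snrpc overlap.

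The 2 U2-specific genes had nearly equal means. Snrpa1, which encodes a leucine-rich repeat protein of the U2 snRNP, measured 3.58, 5.24 and 4.89 FPKM in the control libraries, against 4.52, 4.60 and 4.40 FPKM in the CKO libraries. Snrpb2, which encodes its RNA-binding partner on U2 snRNA, measured 5.30, 6.64 and 6.04 FPKM in the control libraries, against 5.87, 6.21 and 5.87 FPKM in the CKO libraries. In both genes the CKO values fell inside the range of the controls, and the log2 fold changes were -0.004 (95% interval -0.31 to 0.30) and 0.002 (-0.22 to 0.23).

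The Sm proteins form the ring that is loaded onto U1, U2, U4 and U5 snRNA. None of the 7 Sm genes passed, 6 had negative fold changes, and the median log2 fold change was -0.17. Their summed level was 117, 153 and 139 FPKM in the control libraries, against 130, 120 and 118 FPKM in the CKO libraries, so the sums overlapped. Snrpb was the highest per length, with 50.7 ± 6.44 FPKM in flox controls and 44.8 ± 1.33 FPKM in CKO hearts (SD, n = 3 each), and Snrpg the lowest, with 8.20 ± 1.62 and 7.94 ± 1.56 FPKM.

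Snrpd3 was the 1 Sm gene whose groups did not overlap. It measured 11.2, 11.9 and 10.5 FPKM in the control libraries, against 10.01, 8.70 and 8.90 FPKM in the CKO libraries (log2 fold change -0.26, limma adjusted p = 0.124). Snrpe had the widest spread of all members. It measured 12.6, 14.4 and 17.3 FPKM in the control libraries, against 12.6, 7.005 and 14.1 FPKM in the CKO libraries, with CKO 2 far below the rest and CKO 1 level with flox control 1 (-0.41, 95% interval -0.9998 to 0.19, limma adjusted p = 0.344). Snrpd1 ran from 12.5 FPKM in CKO 3 to 21.4 FPKM in CKO 1, a range that held all 3 controls, and its interval of -0.55 to 0.55 leaves changes of nearly 1.5-fold in either direction possible. Snrpd2, Snrpf and Snrpg also overlapped between the groups. Snrpf had the fewest reads of all members, and 65.9% of its exon bases are shared with Ccdc38 on the opposite strand, which measured at most 0.145 FPKM.

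Genes for recognition of the branch point and the 3′ splice site did not pass. Sf1, which binds the branch point first, measured 32.3, 29.7 and 38.7 FPKM in the control libraries, against 34.4, 28.6 and 26.3 FPKM in the CKO libraries. U2af2, whose protein binds the polypyrimidine tract, measured 22.2, 23.1 and 23.0 FPKM in the control libraries, against 25.4, 24.7 and 23.8 FPKM in the CKO libraries. Its CKO values all lay above the controls, but the difference was small (log2 fold change 0.11, 95% interval -0.08 to 0.30, limma adjusted p = 0.426). U2af1, whose protein reads the AG at the end of the intron, measured 28.2 ± 2.71 and 26.0 ± 1.83 FPKM (SD, n = 3 each; limma adjusted p = 0.565).

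Of the 6 SF3a and SF3b subunits, which hold the U2 snRNP on the branch point, none passed. Sf3a1 measured 8.12, 8.02 and 9.34 FPKM in the control libraries, against 6.73, 7.26 and 5.70 FPKM in the CKO libraries. Its groups did not overlap, with a ratio of group means of 0.772 (log2 fold change -0.33, 95% interval -0.59 to -0.07, limma adjusted p = 0.104). The other SF3a genes went the other way by little, with log2 fold changes of 0.04 for Sf3a2 and 0.04 for Sf3a3. Sf3b2 was the most abundant of the 6 per length, with 48.5, 50.5 and 47.3 FPKM in the control libraries, against 41.2, 43.0 and 46.9 FPKM in the CKO libraries, without overlap (-0.16, limma adjusted p = 0.336). Sf3b1, the subunit that clamps the branch helix, measured 19.8, 21.6 and 17.4 FPKM in the control libraries, against 16.6, 19.8 and 20.1 FPKM in the CKO libraries. Its interval, -0.34 to 0.23, lay within a 1.5-fold change.

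The 8 genes of the tri-snRNP and of catalytic activation had a median log2 fold change of -0.01, and all 8 intervals lay within 1.5-fold. Prpf8, the scaffold of the catalytic centre, was the lowest of them relative to controls. It measured 20.7, 20.6 and 18.9 FPKM in the control libraries, against 16.7, 18.0 and 16.2 FPKM in the CKO libraries, without overlap (log2 fold change -0.23, 95% interval -0.44 to -0.02, limma adjusted p = 0.145). Its U5 partners, the helicase gene Snrnp200 and the GTPase gene Eftud2, averaged 10.04 ± 1.04 and 6.64 ± 0.383 FPKM in the controls, against 9.78 ± 0.316 and 6.10 ± 0.371 FPKM in the knockouts (SD, n = 3 each), with overlap in both. Prpf6, which bridges U5 to U4 and U6, measured 12.1, 11.3 and 11.5 FPKM in the control libraries, against 12.7, 12.2 and 12.7 FPKM in the CKO libraries, all above the controls (0.10, limma adjusted p = 0.435). Prpf3, Prpf4 and Prpf31 of the U4 and U6 part had log2 fold changes of 0.03, -0.04 and 0.08. Prpf19, the ubiquitin ligase of the complex named after it, measured 28.6 ± 1.36 and 29.01 ± 3.52 FPKM.

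The 11 hnRNP genes included the most and the least abundant members per length, from Hnrnpa1 at a mean of 64.0 FPKM over the 6 libraries down to Hnrnpr at 2.71 FPKM. None passed, 4 had positive and 7 negative fold changes, and all 11 intervals lay within 1.5-fold. Hnrnpu, which encodes a chromatin-bound scaffold attachment protein, had the highest fold change. It measured 27.0, 26.6 and 26.0 FPKM in the control libraries, against 30.7, 30.02 and 28.4 FPKM in the CKO libraries, without overlap (log2 fold change 0.16, 95% interval -0.04 to 0.36, limma adjusted p = 0.265). Hnrnph1, which binds G-rich runs, had the lowest. It measured 39.0, 39.6 and 45.6 FPKM in the control libraries, against 36.3, 40.0 and 29.3 FPKM in the CKO libraries, so CKO 3 was the lowest library while CKO 2 lay above 2 of the controls (-0.24, limma adjusted p = 0.323).

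Hnrnpr was the second hnRNP gene whose groups did not overlap, with 2.76, 2.92 and 2.96 FPKM in the control libraries, against 2.35, 2.72 and 2.53 FPKM in the CKO libraries (log2 fold change -0.14, limma adjusted p = 0.353). The abundant genes Hnrnpa1, Hnrnpab, Hnrnpk and Hnrnpl overlapped between the groups. Hnrnpa1, a splicing silencer and shuttling protein, measured 58.3, 70.8 and 65.7 FPKM in the control libraries, against 67.2, 68.9 and 52.8 FPKM in the CKO libraries. Hnrnpl, which binds CA repeats, measured 52.8, 46.3 and 48.4 FPKM in the control libraries, against 53.6, 44.1 and 43.8 FPKM in the CKO libraries. Hnrnpf, Hnrnpk, Hnrnpm, Hnrnpd and Hnrnpa3 had log2 fold changes between -0.07 (Hnrnpd) and 0.15 (Hnrnpf).

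The CDC-like kinase genes Clk1 and Clk4, whose transcripts are known for introns that stay unspliced in the nucleus, moved little at gene level. Clk1 measured 18.8, 12.5 and 16.8 FPKM in the control libraries, against 16.6, 14.1 and 16.1 FPKM in the CKO libraries (log2 fold change -0.02, 95% interval -0.39 to 0.35, limma adjusted p = 0.945). Clk4 measured 10.7, 8.03 and 9.64 FPKM in the control libraries, against 8.87, 7.98 and 8.99 FPKM in the CKO libraries (-0.12, -0.39 to 0.16, limma adjusted p = 0.575). In both genes flox control 2 was the lowest control. GENCODE lists 7 intron-retaining transcripts for each gene, and the exon union is 4.53 and 2.97 times the longest coding transcript, so these values do not separate spliced from intron-retaining RNA.

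Libraries differed among themselves about as much as the groups did. Relative to the mean of the flox controls, the median deviation of the members on the log2 scale was -0.05, 0.06 and 0.01 in flox controls 1 to 3, against -0.03, 0.01 and -0.06 in CKO 1 to 3. Flox control 2 was the highest of the 6 libraries for 17 members, and CKO 3 the lowest for 13. The medians over all tested genes lay between -0.009 and 0.006 in every library, and the part of the deposited scaling in this was not tested.

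**Figure D3:**
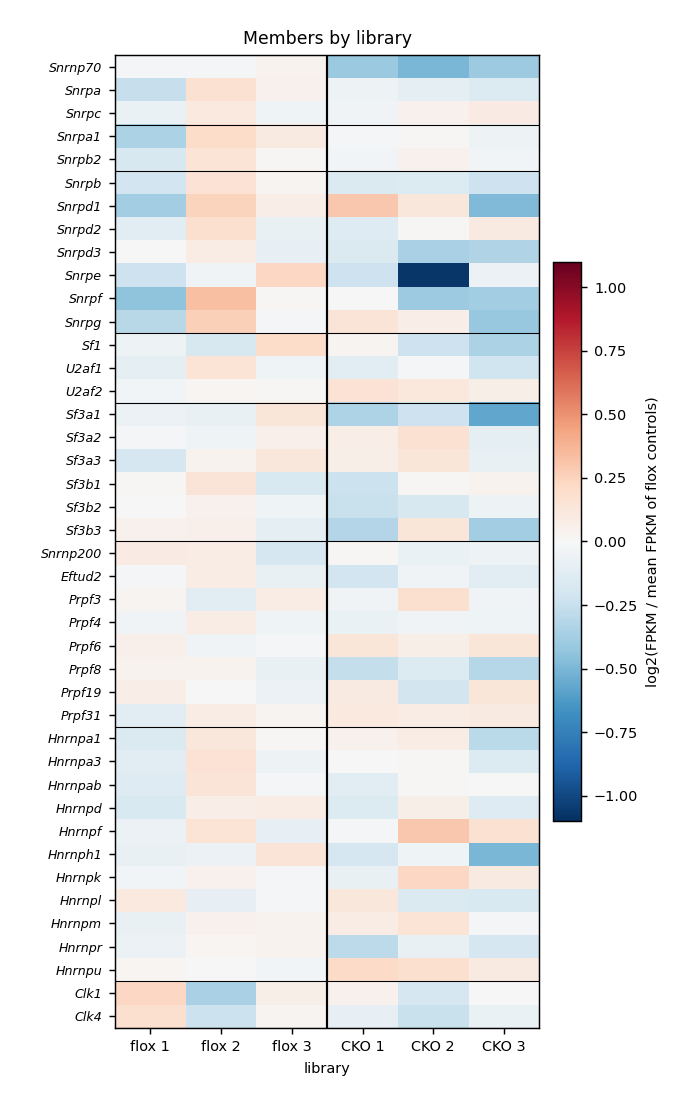
Log2 ratio of each member's FPKM to its flox control mean (colour, blue lower and red higher) in the 6 libraries (columns), with members (rows) in order of role and lines between roles. Snrnp70 is blue in all 3 CKO columns, whereas the darkest cell, Snrpe in CKO 2, stands alone in its row.

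Further genes of the pathway were taken from 11 lists defined by function, also with earlier results known. The lists hold 120 genes of the deposited table, 117 of them tested. Of these, 1 fell (beside 5.49% of all genes tested), none rose and 116 did not pass, and their median log2 fold change was -0.04, beside 0.01 over all genes tested. Groups did not overlap for 32 (27.4%), 17 lower and 15 higher, beside 34.3% of all genes tested. The gene that fell was Luc7l, which encodes a protein of the U1 snRNP related to yeast Luc7. It measured 8.48, 7.91 and 9.57 FPKM in the control libraries, against 6.43, 6.29 and 6.28 FPKM in the CKO libraries, with a ratio of group means of 0.732. All CKO libraries lay below all controls (log2 fold change -0.39, 95% interval -0.60 to -0.18, limma adjusted p = 0.0388). The Luc7l call was lost in 10 of 16 alternatives, among them each library left out in turn (limma adjusted p = 0.0583 to 0.120). With a library left out, 2.59% to 12.3% of all genes tested were called, against 11.2% in the reported fit.

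The U1 auxiliary list, which holds Luc7l, had the lowest median of the 11, at -0.31 over 6 genes. It is singled out here after its values were seen. Luc7l3 measured 16.4, 14.4 and 18.1 FPKM in the control libraries, against 12.1, 12.4 and 13.2 FPKM in the CKO libraries (limma adjusted p = 0.0789). Luc7l2 measured 17.5, 16.6 and 18.2 FPKM in the control libraries, against 13.7, 13.9 and 15.4 FPKM in the CKO libraries (limma adjusted p = 0.104). Prpf40b, whose protein is related to a yeast U1 component, measured 9.17, 7.53 and 9.41 FPKM in the control libraries, against 6.88, 5.69 and 5.83 FPKM in the CKO libraries (limma adjusted p = 0.0547). In these 3 genes every CKO library lay below every control, though none passed. Prpf39 had a log2 fold change of 0.04 and did not pass.

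Among the remaining lists, Ppil1 and Usp39 lay farthest from 0 and are named after their values were seen. Ppil1, a peptidyl-prolyl isomerase of the activated spliceosome, measured 12.9, 13.2 and 18.6 FPKM in the control libraries, against 10.4, 8.39 and 6.56 FPKM in the CKO libraries (log2 fold change -0.75, limma adjusted p = 0.0566). Usp39, needed for tri-snRNP recruitment, measured 6.63, 8.27 and 8.45 FPKM in the control libraries, against 9.48, 10.97 and 11.5 FPKM in the CKO libraries (0.41, limma adjusted p = 0.0746). The groups overlapped in neither gene. The 9 minor spliceosome genes, the 10 tested snRNP assembly genes and the 8 exon junction complex genes had medians of 0.03, 0.03 and -0.09 and no call.

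**Figure D4:**
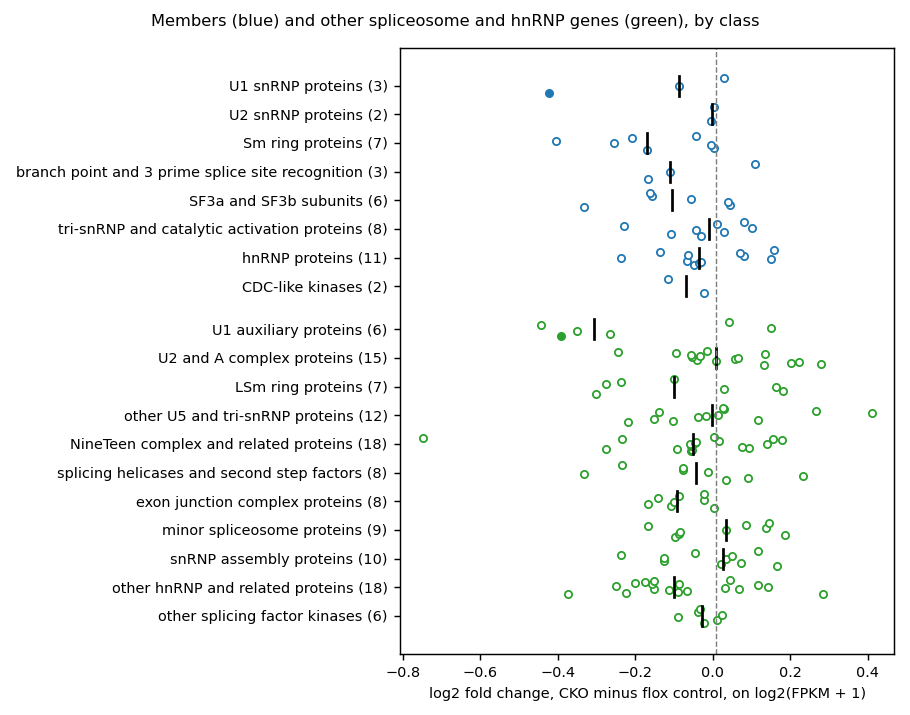
Log2 fold change (horizontal axis, CKO minus flox control, on log2(FPKM + 1)) of the members in blue and of the other spliceosome and hnRNP genes in green, by class, with the number tested in brackets, black bars for class medians and a dashed line for the median of all tested genes. The filled points, Snrnp70 and Luc7l, are those with adjusted p under 0.05, and the U1 auxiliary class has the lowest median, -0.31.

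Several members have features that bear on how well a gene-level value measures them. Intron-retaining transcripts are annotated for 34 of 42 members, and in 16 the GENCODE exon union is over 2 times the longest coding transcript. Where the deposited length is that union, this lowers the level per length relative to other genes. The deposited length was shorter than the union for Snrpd1 (837 against 2052 bases), U2af1 (974 against 2598), Sf3b2 (3231 against 6822) and Hnrnpm (4701 against 7956), which are among the 16. Annotated pseudogenes at least 95% identical over at least 300 bases exist for 11 members. Reads assigned to such copies came to 75.3% of the gene's own reads for Hnrnpa3, 16.4% for U2af1 and 11.1% for Hnrnpk, so the levels of these 3 genes are uncertain. Adding the copies' reads to their parent genes, a choice made after the data were seen, moved the log2 fold change of Hnrnpa3 from -0.03 to 0.08, of U2af1 from -0.11 to -0.17 and of Hnrnpk from 0.08 to 0.06, and no member's call changed. Exon bases are shared with another annotated gene in 20 members, 8 of which have a protein-coding partner of at least 1 FPKM. Of these, Hnrnpab shares 29.1% of its exon bases with Phykpl (1.44 FPKM), Sf3a2 16.1% with Plekhj1 (8.69 FPKM) and Hnrnpm 14.7% with March2 on the same strand (13.7 FPKM).

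Short words were counted in the promoters of the members, beside those of tested genes. Words were searched on both strands in 300 bases, 250 before and 50 after the start, in the 37 members and in 8825 tested genes with a promoter in RefSeq's table. The word CCGGAAG, the core bound by ETS factors, was in 15 members (40.5%) and in 20.5% of all. The word CCAAT was in 48.6% of members and 42.6% of all, GGGCGG in 62.2% and 69.8%, TATAAA in 10.8% and 8.80%, GCGCATGC in 10.8% and 6.13%, and AAGATGGC, a word of the factor YY1, in 2.70% and 5.496%. The first 4 of these stand for the CCAAT box, the GC box, the TATA box and the NRF1 core, and no word contains another on either strand. The ETS word is shown in 30 bases of the 4 most abundant members that hold it before the start, on the gene's strand, with the word in capitals.
Sf3b2 (chr19:5295458-5295487, minus strand): cgggacgtggattacgcaaCCGGAAGtttc
Hnrnpf (chr6:117900279-117900308, plus strand): ggggctgcacaCCGGAAGtccctgtgcttc
Prpf19 (chr19:10895152-10895181, plus strand): tggagcgctcgCCGGAAGaagccgagccaa
Hnrnpd (chr5:99979098-99979127, minus strand): tgcgcacgccaCTTCCGGtcctctttaaag
In Hnrnpd the word reads on the opposite strand. These 4 genes had log2 fold changes of -0.16, 0.15, 0.01 and -0.07, and none passed the test. A word in a promoter is a description of its letters and carries no statement on a factor.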

How the data were processed

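Poly-A selected RNA from 6 mouse hearts was sequenced as paired reads of 150 bases, per the labels' protocols, which do not describe strand marking. The authors deposited FPKM per gene in 1 table. Per the submitters' processing notes, CASAVA, HISAT2 2.0.5, featureCounts 1.5.0-p3, DESeq2 1.20.0 and GRCm38.p6 were used, with no role given for each. The deposited gene length, in bases, is another column of the table, per the file headers. Reads were recovered by multiplying FPKM by this length, and 100% of the products were whole multiples of one unit per library (tolerance 0.001).

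Members and lists were chosen with earlier results of these data known. The test was limma (3.58.1, under R 4.3.3) on log2(FPKM + 1), 2-sided, with genotype as the only factor and a trended prior variance. It covered the 12144 genes whose mean reached 1 FPKM, and p-values were adjusted over all of them. The procedure was tested on simulated data. Named are the 42 members, Ythdc1 and called genes of the other lists. All else named was chosen after its values were seen. Exon overlaps and transcript types came from GENCODE M21 (bounds identical for 39 of 42 members), copies from BLAST 2.17.0, promoters from RefSeq. Alternatives covered the pseudocount, the filter, scaling, the variance model, voom, the replicate number as a block and each library left out. Figures were drawn with matplotlib 3.10.9. Splicing was not analysed here, and 1 gene of the U1 auxiliary list is counted but not reported singly.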

Additional observations from a re-analysis of the deposited data

How the results depend on the processing

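No member was called higher in any alternative. The 1 member called lower, Snrnp70, was no longer called (0 members) after rescaling to TPM (14557 genes passing the filter) or with the replicate number as a block (limma adjusted p = 0.0870), and the count was 0 to 1 with each library left out. Over all genes tested, 6.91% were called after rescaling to TPM and 2.59% to 12.3% with a library left out, against 11.2% in the reported fit. Of 636 values of single members under alternatives, 629 kept their side of the threshold, 7 lost a call (all Snrnp70) and none gained one. The sign differed from the reported one in 51 of them, in 15 members that were not called and whose reported log2 fold change was at most 0.06 in size. The count of members whose interval lay within 1.5-fold was 33 to 39 over the alternatives other than voom, which was not read for intervals. The share of all genes tested ran from 33.6% after rescaling to TPM (34 members) to 73.6% with no filter (39 members). The count of members was lowest with the filter at 5 FPKM, under which 37 members were tested, beside 59.5% of all genes. Other spliceosome genes called lower numbered 0 with no filter, after rescaling to TPM, with recovered reads per library total and with the replicate block, 3 with a filter at 5 FPKM and with voom, and 0 to 2 with a library left out. Ythdc1 was not called after rescaling to TPM (log2 fold change -0.59, limma adjusted p = 0.0944) or with the replicate block (-0.54, 0.0542), and its log2 fold change was -0.60 to -0.50 with a library left out. The cause was not tested. Same-numbered libraries deviated together with correlations of 0.14, 0.06 and -0.005, so the numbers were not taken as pairs; the block moved the calls over all genes from 11.2% to 5.89%. Voom on the recovered reads called 709 genes higher and 718 lower, Snrnp70 among them. Snrpf, with the fewest reads of the members (129 to 229 per library), had a 95% interval of -0.68 to 0.26, and Snrpe, with 187 to 472 reads, a wider one of -0.9998 to 0.19. The part of depth in these widths was not tested.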
